A study of Mus musculus with 8 samples.

Results

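The RNAs described here are the 9 mitochondrially encoded RNAs that were abundant in every library of a mouse oocyte RNA-seq series. They are the 6 mRNAs mt-Nd1, mt-Nd2, mt-Nd4, mt-Nd5, mt-Co1 and mt-Cytb of the heavy-strand transcript, the mRNA mt-Nd6 of the light-strand transcript, and the ribosomal RNAs mt-Rnr1 and mt-Rnr2. They were chosen by their measured level in all 8 libraries, from 19 mitochondrially encoded genes listed in both the control and the injection tables, which share 15962 genes. The level itself is therefore a description, and the tests below concern differences between groups. The lowest value of any of the 9 was 56.0 scaled TPM, for mt-Nd6, and the highest minimum of a protein-coding gene outside the set was 3.19 scaled TPM, for mt-Atp6. Among the tRNAs, mt-Tq had a minimum of 177 scaled TPM and was not included.

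Polyadenylated RNA of 15 oocytes per library was profiled by Smart-seq2, with 2 libraries in each of 4 groups. GV and MII were control oocytes without injection, taken from in vitro culture at the germinal vesicle stage (prophase arrest) and at metaphase II. Btg4wt and Btg4tm were MII oocytes that had been injected at the fully grown stage with cRNA for Myc-tagged BTG4, either wild-type or with 3 phosphorylated residues (2 serines and 1 threonine) changed to alanine. The study's methods give outbred ICR females of 6 weeks, primed with gonadotropin, as the source of oocytes, and all 4 groups kept the endogenous Btg4 gene. BTG4 is the adaptor that brings the CCR4-NOT deadenylase to maternal mRNA in the maturing oocyte. Btg4 itself was measured at 2722 ± 102 scaled TPM in GV, 5897 ± 149 in MII, 5344 ± 235 in Btg4wt and 3897 ± 243 in Btg4tm (SD, n = 2 each), and reads of the injected and of the endogenous RNA cannot be told apart. Neither injected group held more Btg4 RNA than uninjected MII oocytes at collection, so overexpression is not seen in this RNA. The paper reports it for BTG4 protein, by immunoblot of injected oocytes, and protein was not measured here. Its discussion adds that both exogenous forms seemed to lower endogenous BTG4, which it leaves to be clarified. The names Btg4wt and Btg4tm are used here as labels of libraries.

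Mitochondrial DNA is transcribed from both strands into long precursors, which are cut mostly at the tRNAs that lie between the genes. Most of the mRNAs then receive short A tails from the poly(A) polymerase MTPAP, while the rRNAs carry only a few added A. All mitochondrial proteins encoded this way are subunits of the respiratory chain or of ATP synthase, and a fully grown oocyte holds unusually many mitochondria. These RNAs lie inside the mitochondrial matrix, whereas the deadenylase recruited by BTG4 acts in the cytoplasm.

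The libraries were primed with oligo(dT), so the 3′ ends bear on what was captured. Annotated gene ends of 4 mRNAs and both rRNAs are shown first. For mRNAs these are ends of the coding sequence, and where each RNA ends and receives its tail was not examined. The sequences are those of GENCODE transcripts on GRCm38, each the last 30 bases of the gene on its own strand, with the encoded part of the stop codon in capitals.

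mt-Nd1, chrM:3678-3707, plus strand: tttacagcgggagtaccaccatacataTAG

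mt-Co1, chrM:6843-6872, plus strand: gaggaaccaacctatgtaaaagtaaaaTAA

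mt-Nd4, chrM:11515-11544, plus strand: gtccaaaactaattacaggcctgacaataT

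mt-Cytb, chrM:15259-15288, plus strand: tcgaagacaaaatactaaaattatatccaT

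mt-Rnr1, chrM:995-1024, plus strand: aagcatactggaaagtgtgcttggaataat

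mt-Rnr2, chrM:2646-2675, plus strand: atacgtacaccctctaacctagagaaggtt

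The annotated genes mt-Nd4 and mt-Cytb ended 1 base past their last whole codon, on a lone T, so their stop codon is complete only after A residues are added. The other 5 mRNAs encoded a whole stop codon, TAG in mt-Nd1 and mt-Nd2 and TAA in mt-Nd5, mt-Nd6 and mt-Co1. The remaining pair of ends overlapped. The genes mt-Nd5 (chrM:11742-13565, plus strand) and mt-Nd6 (chrM:13552-14070, minus strand) met tail to tail and shared 14 bases, shown here in capitals on each gene's own strand.

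mt-Nd5, chrM:13536-13565, plus strand: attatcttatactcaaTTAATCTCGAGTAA

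mt-Nd6, chrM:13552-13581, minus strand: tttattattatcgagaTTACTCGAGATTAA

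Reads were counted without strand, so mt-Nd6 mRNA cannot be told apart from heavy-strand RNA read through the same bases. Internal A stretches can also be primed by oligo(dT). The longest run of A on a gene's own strand was 8 bases in mt-Nd2 and 7 in mt-Nd4, mt-Nd5, mt-Co1 and mt-Rnr2. It was 6 in mt-Nd1, 5 in mt-Rnr1 and mt-Cytb and 3 in mt-Nd6. A run of 7 T in mt-Nd6 is a run of 7 A in heavy-strand RNA over the same bases. The run of mt-Nd2, the longest on an own strand, is shown in capitals.

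mt-Nd2, chrM:4041-4070, plus strand: tactaatcaacAAAAAAAAcccacgatcaa

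The listed TPM (a share of the library corrected for gene length) summed to between 996199 and 998615 per library, and read depth is unknown. TPM were brought to a common scale by the median of ratios (factors of 0.948 to 1.11), which gives scaled TPM. No added standard was used, so a change in mitochondrial RNA per oocyte and a change in the rest of the RNA cannot be told apart. Capture by oligo(dT) depends on A tails and A stretches. A change in the tail and a change in the amount of an RNA therefore cannot be told apart either, and levels below are levels of captured RNA. All 12 oocyte markers were at 1 TPM or more in every group. Of 18 cumulus and granulosa markers, 6 were listed in the control tables and 7 in the injection tables. They summed to 22.0 to 30.7 TPM per library, most of it Cyp19a1. In both libraries of a group, 3 reached 1 TPM in GV, 1 in MII, 2 in Btg4wt and 2 in Btg4tm. Has2, Ptx3, Amh and Foxl2 were among those not listed. The filter on listed genes is not stated, so a gene that is not listed need not be at 0. A contribution of such cells was not tested. With 2 libraries a group, an exact permutation test of a single value cannot go below p = 0.333, so tests come from a limma fit over all 13968 genes with at least 1 TPM in 2 libraries. A gene was called where its Benjamini-Hochberg adjusted p was under 0.05 and its log2(scaled TPM + 1) differed by more than 1 between groups.

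Maturation was accompanied by a rise of all 9 mitochondrial RNAs. Their summed level was 5457 and 5536 scaled TPM in the GV libraries and 24176 and 24035 in the MII libraries, a 4.39-fold difference between group means. As a share of all listed TPM, they made up 0.582% and 0.615% in GV and 2.36% and 2.33% in MII. All 9 were called higher in MII, against 12.5% of all genes tested (29.8% at the adjusted p alone), and none had overlapping libraries, as held upward for 41.1% of all genes. Their log2 fold changes ran from 1.35 to 2.88 with a median of 2.12, beside a median of -0.0017 over all genes.

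**Figure D1:**
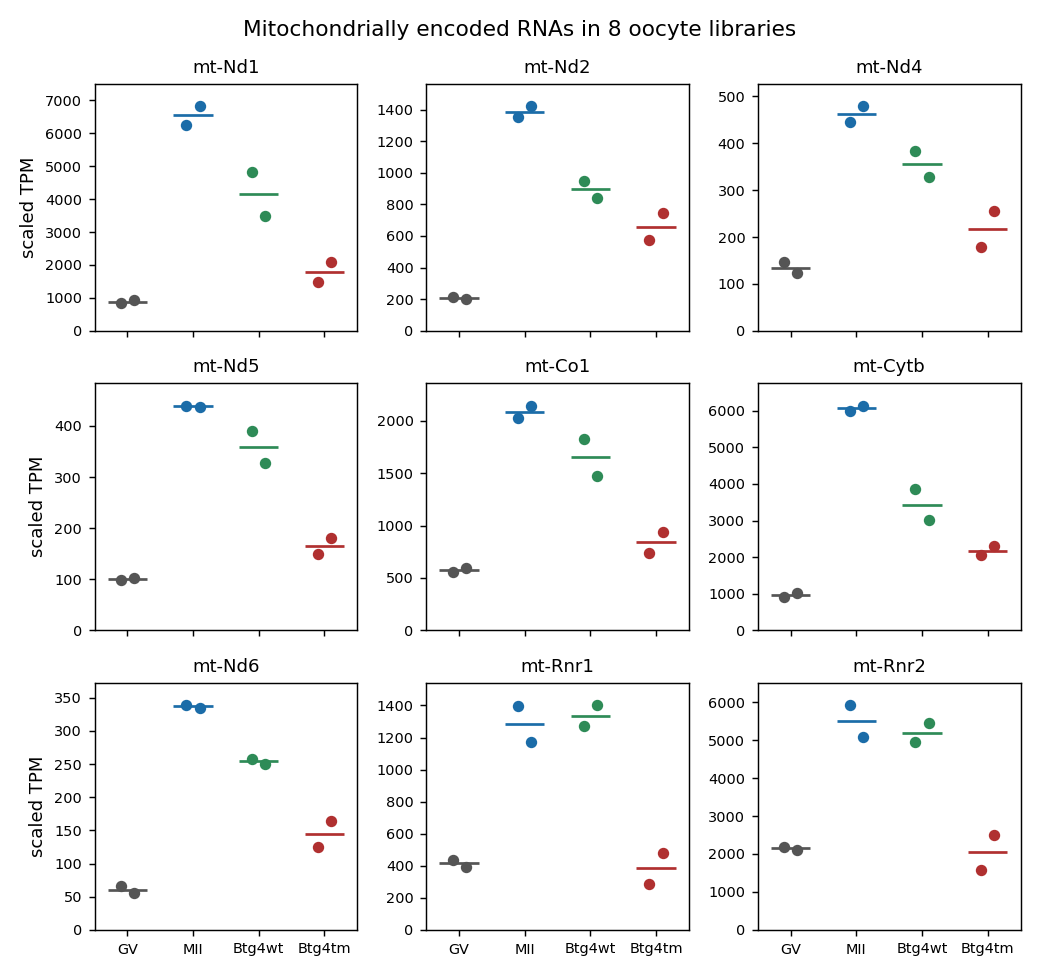
Scaled TPM of each RNA (vertical axis, linear from 0) in the 8 libraries, grouped as GV, MII, Btg4wt and Btg4tm; points are libraries and lines are group means. The 7 mRNAs descend from MII through Btg4wt and Btg4tm to GV without overlap, while for mt-Rnr1 and mt-Rnr2 the MII and Btg4wt libraries overlap, as do the GV and Btg4tm libraries.

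The complex I subunit mRNAs rose to unequal extents. mt-Nd1 was at 835 and 940 scaled TPM in GV and at 6266 and 6826 in MII, a 7.38-fold rise (log2 fold change 2.88, SE 0.20, adjusted p = 8.25e-06). mt-Nd2 was at 216 and 202 in GV and at 1353 and 1422 in MII, a 6.61-fold rise (2.73, SE 0.13, adjusted p = 1.67e-06). These were the most strongly raised of the 9, and neither had a GV library near an MII library. mt-Nd5, the longest of the mitochondrial mRNAs, went from 98.1 and 102 to 440 and 437 scaled TPM, a 4.34-fold rise (log2 fold change 2.12, SE 0.12, adjusted p = 3.74e-06). mt-Nd4, which encodes another core membrane subunit, went from 147 and 123 to 445 and 479, a 3.43-fold rise (1.78, SE 0.18, adjusted p = 5.23e-05). Between mt-Nd1 and mt-Nd4 the ratio within a library was 5.68 and 7.67 in GV and 14.1 and 14.2 in MII. The captured mRNAs for subunits of a single complex thus shifted in proportion to each other, and the proteins were not measured.

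mt-Cytb encodes the catalytic cytochrome b of complex III. Its level was 909 and 1014 scaled TPM in GV and 5987 and 6142 in MII, a 6.31-fold rise (log2 fold change 2.66, SE 0.14, adjusted p = 2.00e-06). mt-Co1 encodes the catalytic subunit of complex IV, cytochrome c oxidase. It went from 561 and 592 to 2031 and 2145 scaled TPM, a 3.62-fold rise (1.85, SE 0.15, adjusted p = 1.57e-05). mt-Nd6, the single light-strand mRNA, was at 65.5 and 56.0 in GV and 339 and 335 in MII, a 5.49-fold rise (2.46, SE 0.14, adjusted p = 3.46e-06). It lay within the range of the heavy-strand mRNAs, and was the lowest of the 9 RNAs in each of the 8 libraries.

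The rRNAs had the smallest rises, although mt-Rnr1 was not separated from mt-Nd4, whose value it passed without MII replicate 2 (1.77 against 1.74). mt-Rnr1, the 12S rRNA of the small mitochondrial ribosomal subunit, went from 437 and 392 to 1396 and 1175 scaled TPM, a 3.09-fold rise (log2 fold change 1.63, SE 0.22, adjusted p = 0.000312). mt-Rnr2, the 16S rRNA of the large subunit, went from 2188 and 2115 to 5920 and 5073, a 2.55-fold rise (1.35, SE 0.20, adjusted p = 0.000465). To set the classes against each other without the nuclear RNAs, every library was rescaled so that the geometric mean of the 6 heavy-strand mRNAs was equal, and the fit was repeated. Relative to these mRNAs, mt-Rnr2 was lower in MII than in GV by a log2 fold change of -0.99 (SE 0.21, adjusted p = 0.000749) and mt-Rnr1 by -0.71 (SE 0.22, adjusted p = 0.00798). On this scale 94.9% of all genes were lower in MII at an adjusted p under 0.05, since most RNAs did not rise with the mitochondrial mRNAs. The 6 mRNAs that set this scale also spread over it. Since their own mean is held equal, some must lie below it and others above, so no test is given for them. Relative to that mean, mt-Nd4 (-0.55) and mt-Co1 (-0.48) were lower in MII, not far from mt-Rnr1. mt-Nd1 (0.54) and mt-Nd2 (0.39) were higher. Leaving out GV replicate 1 gave mt-Rnr1 an adjusted p of 0.0588 and leaving out MII replicate 2 gave 0.0917, while mt-Rnr2 stayed under 0.05 without any single library. mt-Nd6 did not differ from the heavy-strand mRNAs at this threshold (0.13, 95% interval -0.27 to 0.54, adjusted p = 0.486).

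Between the MII oocytes labelled Btg4wt, whose Btg4 RNA was not above that of uninjected MII oocytes, and the latter, none of the 9 mitochondrial RNAs was called. Here 0 of the 9 RNAs and 0% of all genes passed the adjusted p threshold in limma, while 6 of the 9 and 1655 of 13968 genes had an unadjusted p under 0.05. The median log2 fold change of the 9 was -0.38. mt-Cytb differed most, at 3858 and 3002 scaled TPM in Btg4wt against 5987 and 6142 in MII (log2 fold change -0.83, SE 0.14, adjusted p = 0.120). All 7 mRNAs had both Btg4wt libraries under both MII libraries, as did 20.8% of all genes. The rRNAs overlapped between the groups, with a log2 fold change of 0.06 for mt-Rnr1 (95% interval -0.45 to 0.57) and -0.08 for mt-Rnr2 (-0.53 to 0.37). These groups differ in injection as well as in the RNA injected, and their parts cannot be told apart.

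In the libraries labelled Btg4tm, all 9 RNAs were lower than in those labelled Btg4wt. The summed level was 18695 and 16537 scaled TPM in Btg4wt and 7149 and 9671 in Btg4tm, a 2.09-fold difference between group means. Of the 9 RNAs, 4 were called lower in Btg4tm, against 7.94% of all genes, and all 9 had an adjusted p under 0.05 in that direction, against 23.3%. No Btg4tm library reached a Btg4wt library for any of the 9, a pattern that 36.7% of all genes showed in the same direction. The median log2 fold change was -0.98, beside 0.0077 over all genes.

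**Figure D2:**
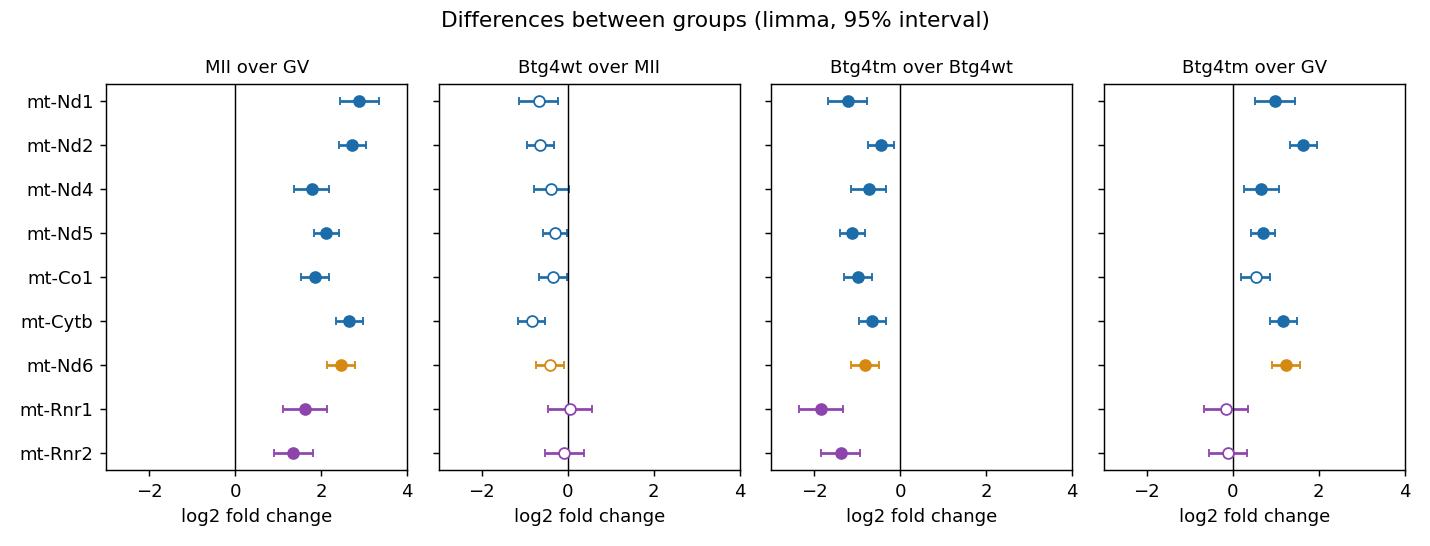
Log2 fold changes (horizontal axis, log2(scaled TPM + 1) scale) of the 9 RNAs in 4 comparisons, with 95% intervals from limma; filled points have an adjusted p under 0.05. Blue marks heavy-strand mRNAs, orange mt-Nd6 and purple the rRNAs, which have the lowest values in MII over GV and in Btg4tm over Btg4wt. The comparisons share libraries.

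The rRNAs had the largest differences here, although the value of mt-Rnr2 lay within the 95% interval of mt-Nd1 (-1.68 to -0.76). mt-Rnr1 was at 1271 and 1402 scaled TPM in Btg4wt and at 283 and 483 in Btg4tm, 3.60-fold lower in the mutant (log2 fold change -1.85, SE 0.22, adjusted p = 0.000237). mt-Rnr2 was at 4947 and 5438 in Btg4wt and at 1582 and 2505 in Btg4tm, 2.60-fold lower (-1.38, SE 0.20, adjusted p = 0.000612). In both rRNAs the lower Btg4tm library was replicate 1. Relative to the heavy-strand mRNAs, mt-Rnr1 was lower in Btg4tm by a log2 fold change of -0.99 (SE 0.22, adjusted p = 0.00238), where 3.12% of all genes were lower at an adjusted p under 0.05. mt-Rnr2 did not pass on that scale (-0.52, 95% interval -0.99 to -0.06, adjusted p = 0.0565), and its value depended on single libraries, from -0.30 without Btg4wt replicate 2 (adjusted p = 0.247) and -0.37 without Btg4tm replicate 1 (adjusted p = 0.254) to -0.67 without Btg4tm replicate 2 (adjusted p = 0.0380) and -0.74 without Btg4wt replicate 1 (adjusted p = 0.0183). mt-Nd6 differed little from the heavy-strand mRNAs (0.04, 95% interval -0.36 to 0.44, adjusted p = 0.879).

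Of the complex I mRNAs, mt-Nd1 and mt-Nd5 were called. mt-Nd1 was at 4812 and 3473 scaled TPM in Btg4wt and at 1470 and 2091 in Btg4tm, 2.33-fold lower (log2 fold change -1.22, SE 0.20, adjusted p = 0.00124). mt-Nd5 was at 391 and 327 in Btg4wt and at 150 and 180 in Btg4tm, 2.17-fold lower (-1.12, SE 0.12, adjusted p = 0.00016). Both calls rested on the fold threshold, since without Btg4wt replicate 1 or without Btg4tm replicate 1 the log2 fold changes lay between -0.97 and -1.0, which left 2 called RNAs, the rRNAs. mt-Nd4 was at 384 and 327 in Btg4wt and at 178 and 255 in Btg4tm (-0.73, SE 0.18, adjusted p = 0.00888). mt-Nd2 was at 950 and 840 in Btg4wt and at 574 and 745 in Btg4tm (-0.45, SE 0.13, adjusted p = 0.0233), the smallest difference of the 9.

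The complex III and IV mRNAs and the light-strand mRNA passed the adjusted p threshold but not the fold threshold. mt-Cytb was at 3858 and 3002 scaled TPM in Btg4wt and at 2051 and 2306 in Btg4tm (log2 fold change -0.65, SE 0.14, adjusted p = 0.00485). mt-Co1 was at 1824 and 1478 in Btg4wt and at 735 and 943 in Btg4tm (-0.98, SE 0.15, adjusted p = 0.000746). mt-Nd6 was at 258 and 249 in Btg4wt and at 125 and 165 in Btg4tm (-0.82, SE 0.14, adjusted p = 0.00173). The Btg4tm libraries differed from each other more than those of any other group. All 9 RNAs were higher in Btg4tm replicate 2, by 1.12-fold to 1.70-fold with a median of 1.32, against median replicate differences of 1.12-fold in GV, 1.06-fold in MII and 1.17-fold in Btg4wt.

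Set against GV oocytes, Btg4tm oocytes held more of most mRNAs, and rRNA at overlapping levels. mt-Nd2 (log2 fold change 1.64, SE 0.13, adjusted p = 0.00352), mt-Nd6 (1.23, SE 0.14, adjusted p = 0.00466) and mt-Cytb (1.18, SE 0.14, adjusted p = 0.00487) were called higher in Btg4tm, 3 of the 9 against 1.02% of all genes. With mt-Nd1 (0.98), mt-Nd5 (0.71) and mt-Nd4 (0.66), 6 of the 9 had an adjusted p under 0.05 upward, against 7.66% of all genes, while mt-Co1 did not (0.53, adjusted p = 0.0526). That count of 6 was 3 without GV replicate 1, without GV replicate 2 or with no trend in eBayes, and 4 without Btg4tm replicate 2, and mt-Nd4 in particular lost the threshold under most alternatives. All 7 mRNAs had both Btg4tm libraries above both GV libraries, as did 25.3% of all genes. For the rRNAs the libraries overlapped, with a log2 fold change of -0.16 for mt-Rnr1 (95% interval -0.67 to 0.35, adjusted p = 0.663) and -0.11 for mt-Rnr2 (-0.56 to 0.34, adjusted p = 0.743). Without Btg4tm replicate 1 both rRNA values turned to 0.20, so no direction is given for them. This comparison differs in stage, injection and injected RNA at once, and it shares libraries with the comparisons above, as does Btg4wt over MII.

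Placed in order of group means, each of the 7 mRNAs ran MII, Btg4wt, Btg4tm, GV, with no overlap between neighbours. For mt-Rnr1 the order was Btg4wt, MII, GV, Btg4tm and for mt-Rnr2 it was MII, Btg4wt, GV, Btg4tm, and in both only the step between the upper and the lower pair of groups was free of overlap.

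Proportions within a library do not depend on the scaling, though they do depend on capture by oligo(dT), and they are given here as descriptions. The rRNAs made up 48.1% and 45.3% of the TPM of the 9 RNAs in GV, 30.3% and 26.0% in MII, 33.3% and 41.4% in Btg4wt and 26.1% and 30.9% in Btg4tm. GV thus had the highest rRNA share, and the MII and Btg4tm libraries overlapped. The rRNAs come from the same stretch of the heavy strand, with a tRNA between them. The ratio of mt-Rnr2 to mt-Rnr1 was 5.0 and 5.40 in GV, 4.24 and 4.32 in MII, 3.89 and 3.88 in Btg4wt and 5.59 and 5.19 in Btg4tm, so that Btg4tm overlapped GV and lay above both other MII-stage groups. Among mRNAs, the ratio of mt-Nd1 to mt-Nd4 was 12.5 and 10.6 in Btg4wt and 8.24 and 8.22 in Btg4tm, between the GV and MII values given above. The ratio of mt-Cytb to mt-Nd5 was 9.27 and 9.91 in GV, 13.6 and 14.1 in MII, 9.88 and 9.18 in Btg4wt and 13.7 and 12.8 in Btg4tm, where Btg4tm overlapped MII and Btg4wt overlapped GV. mt-Nd2 to mt-Nd5 was highest in Btg4tm, at 3.82 and 4.14, against 2.2 and 1.98 in GV, 3.08 and 3.26 in MII and 2.43 and 2.57 in Btg4wt. The ratio of mt-Nd6 to mt-Nd5 was 0.668 and 0.547 in GV, 0.770 and 0.767 in MII, 0.661 and 0.762 in Btg4wt and 0.834 and 0.916 in Btg4tm. As reads were counted without strand, it is not a ratio of the strands. The proportions thus did not all follow the order of the levels.

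**Figure D3:**
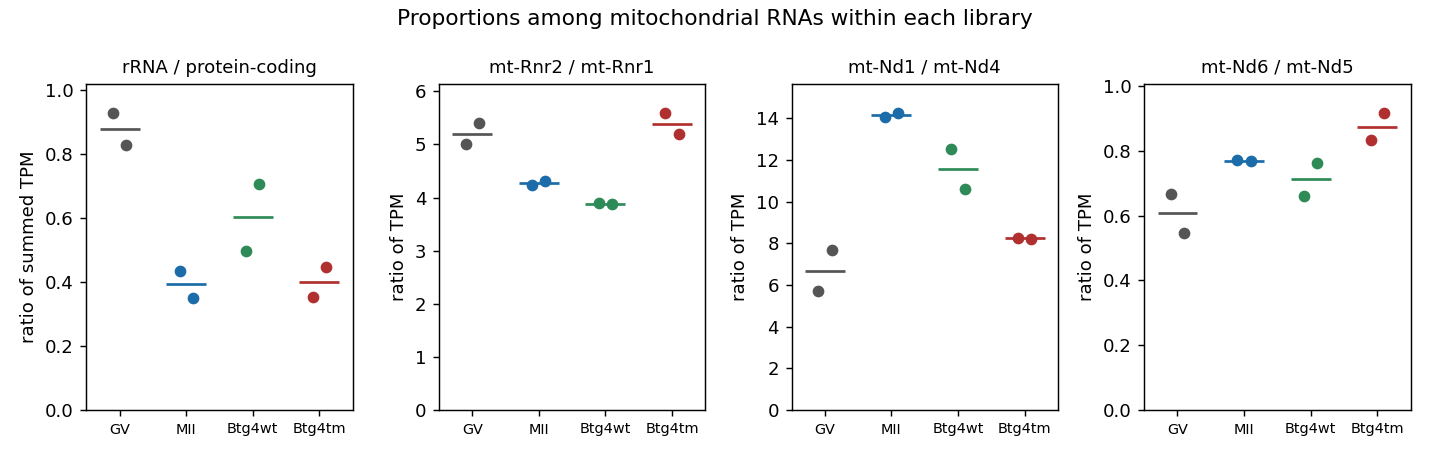
Ratios of TPM within each library (vertical axes, linear from 0; no unit) for the rRNA sum over the mRNA sum, mt-Rnr2 over mt-Rnr1, mt-Nd1 over mt-Nd4 and mt-Nd6 over mt-Nd5; points are libraries and lines group means. The rRNA ratio is highest in GV, and mt-Rnr2 over mt-Rnr1 is higher in GV and Btg4tm (5.0 to 5.59) than in MII and Btg4wt (3.88 to 4.32).

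The rank of the RNAs by TPM, which is corrected for length, also changed. mt-Rnr2 had the highest TPM in GV and Btg4wt, mt-Nd1 in MII, mt-Cytb in Btg4tm replicate 1 and mt-Rnr2 in Btg4tm replicate 2. Across the 8 libraries, the correlation of each RNA's log2 level with the mean of the other 8 was lowest for the rRNAs (Pearson r of 0.877 for mt-Rnr1 and 0.896 for mt-Rnr2) and highest for mt-Nd5 (0.996). These points share libraries and groups, and the values are descriptive.

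Sequence identity with the nuclear genome may bear on which mitochondrial RNAs were counted, because the counting kept only reads whose mapping quality was 10 or more. Alignments of reads were not examined, so whether shared sequence lowered any value was not tested. Every 50-base window of each mitochondrial gene was looked up in the annotated nuclear transcripts of GRCm38, while copies outside annotated transcripts were not analysed here. mt-Nd1, mt-Cytb, mt-Nd6 and mt-Rnr1 had no such window, and mt-Rnr2 had 1.0%, mt-Nd5 7.6% and mt-Nd2 8.2%. mt-Co1 had 51.1% and mt-Nd4 62.2% of windows in nuclear transcripts, and these showed the smallest rises of the heavy-strand mRNAs in MII over GV. The rRNAs, with little or no shared sequence, had smaller values still. Across the 9 RNAs, the Spearman correlation of shared windows with the log2 fold change was -0.26 in MII over GV and 0.35 in Btg4tm over Btg4wt. The part of the copies in the rises was not tested. When the classes were compared against only the 4 heavy-strand mRNAs with few copies, a choice made after seeing the data, mt-Rnr1 stood at -0.97 (adjusted p = 0.00126) and mt-Rnr2 at -1.25 (adjusted p = 0.000143) in MII over GV, and mt-Nd6 turned from 0.13 to -0.12 (adjusted p = 0.523). In Btg4tm over Btg4wt the values were -0.99 for mt-Rnr1 (adjusted p = 0.00303) and -0.52 for mt-Rnr2 (adjusted p = 0.0628).

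**Figure D4:**
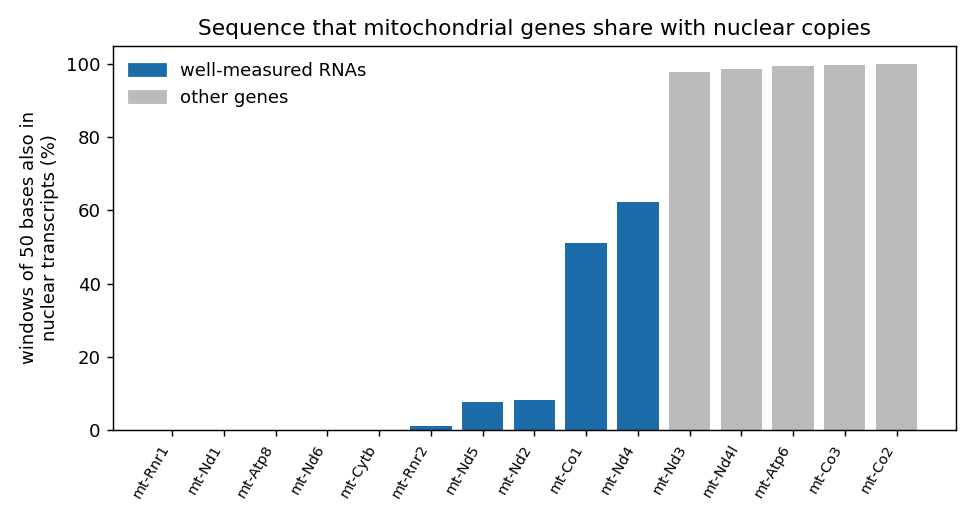
Percent of 50-base windows of each mitochondrial protein-coding or rRNA gene that also occur in annotated nuclear transcripts (vertical axis, %); blue bars are the 9 well-measured RNAs and grey bars the other genes. Of the well-measured RNAs, mt-Co1 (51.1%) and mt-Nd4 (62.2%) share the most, and 5 of the 6 others share 98.0% or more.

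The 6 protein-coding genes outside the set were those with the most shared sequence, apart from mt-Atp8. mt-Co2, mt-Atp6 and mt-Co3, with 100%, 99.5% and 99.9% of windows shared, had means of 7.41, 20.7 and 4.48 scaled TPM over the 8 libraries. mt-Nd3 (98.0%) and mt-Nd4l (98.8%) were not listed. mt-Atp8, a gene of 204 bases whose end overlaps mt-Atp6 by 43 bases, had no shared window and a mean of 12.1. The 4 listed genes were all called higher in MII over GV (log2 fold changes of 1.48 to 2.76), and none passed in Btg4tm over Btg4wt (-0.36 to 0.53), where the libraries overlapped. The nuclear copies of this stretch on chromosome 1 (GRCm38, minus strand) had TPM of their own. The copy of mt-Nd3, Gm28438, was listed at 10.4 and 8.48 TPM in GV, 79.0 and 70.6 in MII, 90.4 and 62.7 in Btg4wt and 7.69 and 27.8 in Btg4tm. Reads from such a copy and from mt-Nd3 are nearly identical, so this value is uncertain as to its source.

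The 6 tRNA genes listed in both sets were called higher in MII over GV in 6 of 6 cases (log2 fold changes of 2.52 to 4.19), against 12.5% of all genes, and lower in Btg4tm over Btg4wt in 5 of 6 (all 6 from -2.47 to -0.69), against 7.94%. Those with the highest means were mt-Tq, with 867 scaled TPM, and mt-Tp, with 275. Both are encoded on the minus strand, and without strand their reads cannot be told apart from precursor RNA of the other strand. For all 6 genes, which are short, reads may come from precursor or neighbouring RNA, so the values are not taken as levels of mature tRNA.

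The nuclear genes that act on these RNAs were also examined, in 4 lists chosen by function. Of 9 genes of mitochondrial transcription, 2 were called higher and 3 lower in MII over GV, where 12.5% of all genes were called higher and 24.0% lower. In Btg4tm over Btg4wt 3 were called higher, against 18.1% of all genes. Their median log2 fold changes were 0.04 and -0.06, beside -0.0017 and 0.0077 over all genes. Mterf4, which acts with an rRNA methyltransferase in the assembly of the mitochondrial ribosome, fell in maturation (log2 fold change -2.60, SE 0.16, adjusted p = 4.66e-06) and was higher in Btg4tm than in Btg4wt (2.10, SE 0.16, adjusted p = 2.23e-05). Tefm, the elongation factor of the mitochondrial RNA polymerase, showed the same directions (-2.37 and 2.40, adjusted p = 6.50e-05 and 9.98e-05). Polrmt, the polymerase itself, is named for its role and not by the rule on named genes, and was at 22.6 ± 3.61 scaled TPM in GV, 0.918 ± 0.018 in MII, 1.38 ± 0.98 in Btg4wt and 14.4 ± 2.82 in Btg4tm (SD, n = 2). Tfb2m, the promoter-melting factor, rose in maturation (1.16, SE 0.12, adjusted p = 5.36e-05) and did not pass in Btg4tm over Btg4wt (-0.16, adjusted p = 0.293). Mterf1b, a gene of the termination factor family, was 1.01 in MII over GV (adjusted p = 0.000406) and -0.60 in Btg4tm over Btg4wt (adjusted p = 0.00871).

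Of 21 genes of mitochondrial RNA processing and stability, 2 were called higher and 8 lower in MII over GV, beside 12.5% and 24.0% of all genes, and 6 were called higher and 1 lower in Btg4tm over Btg4wt, beside 18.1% and 7.94%. Their median log2 fold changes were -0.55 and 0.42. Hsd17b10 and Prorp encode parts of the RNase P that cuts tRNAs at their 5′ ends. Hsd17b10 fell in maturation (log2 fold change -2.86, adjusted p = 1.00e-05) and was higher in Btg4tm (2.14, adjusted p = 7.25e-05). Prorp was -2.41 in MII over GV (adjusted p = 2.49e-05) and 1.87 in Btg4tm over Btg4wt (adjusted p = 0.000153). Ptcd2 (-2.17 and 1.56) and Fastkd2 (-1.61 and 1.16), encoding mitochondrial RNA-binding proteins, were called in both comparisons as well. Mtpap, the mitochondrial poly(A) polymerase and also named for its role, did not pass in either (-0.24, adjusted p = 0.103, and -0.13, adjusted p = 0.378).

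Of 7 genes of mitochondrial rRNA modification 4 were tested, with 0 called in MII over GV by limma and 1 called lower in Btg4tm over Btg4wt, where 7.94% of all genes were. That gene was Tfb1m, the dimethyltransferase of the 12S rRNA encoded by mt-Rnr1. It was at 29.0 ± 2.59 scaled TPM in GV, 57.4 ± 3.34 in MII, 75.6 ± 15.9 in Btg4wt and 29.0 ± 7.63 in Btg4tm (SD, n = 2), with log2 fold changes of 0.96 (SE 0.20, adjusted p = 0.00341) in MII over GV and -1.36 (SE 0.20, adjusted p = 0.000769) in Btg4tm over Btg4wt. Of 7 genes of mitochondrial DNA maintenance 5 were tested, with 2 called lower in MII over GV (24.0% of all genes) and 2 called higher in Btg4tm over Btg4wt (18.1%). In Btg4wt over MII and in Btg4tm over GV none of the genes in the 4 lists was called, and of all genes 0% were called in the former and 1.02% in each direction in the latter.

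Among 6865 other genes averaging 10 or more scaled TPM, those whose log2 values over the 8 libraries ran closest to the mean of the 9 RNAs were Siva1 (Pearson r = 0.997), Septin7 (0.996), Ttc9c (0.995), Dguok (0.995) and Eif3i (0.994). Dguok encodes the deoxyguanosine kinase of mitochondria and Eif3i a subunit of a cytoplasmic initiation factor. Dguok was at 53.3 and 51.1 scaled TPM in GV, 120 and 123 in MII, 109 and 103 in Btg4wt and 64.9 and 84.2 in Btg4tm. Like the mRNAs of the set, it had its libraries in the order MII, Btg4wt, Btg4tm, GV without overlap, with a smaller range. Siva1, Septin7, Ttc9c and Eif3i had the same order without overlap. As all were chosen for running close to the set, the shared order follows from the choice.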

How the data were processed

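Smart-seq2 libraries of 15 oocytes, 2 per group, were taken as grouped and numbered in the labels, which mention 3 samples per group. The authors trimmed reads with Trim Galore 0.6.10, aligned them to GRCm38 with HISAT2 2.2.0 and GENCODE annotation, counted exon reads without strand with featureCounts 2.0.6 (mapping quality of at least 10), and deposited TPM per gene symbol. The gene lengths behind the TPM and the depth are not given in the sources used here, so no counting error can be had, and precision rests on 2 libraries per group. The labels do not say whether these came from separate animals, so p-values measure the spread between libraries.

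From the TPM, the 15962 genes of both table sets were put on a common scale (median of ratios) and fitted as log2(value + 1), with a pseudocount of 1, in limma 3.58.1 on R 4.3.3 (lmFit with 1 coefficient per group, contrasts, eBayes with trend) over all 8 libraries. Fold changes on this scale understate those of low genes. The fit covered the 13968 genes that reached 1 TPM in 2 or more libraries, and was tested on simulated data. The class comparison used the same fit after rescaling to 6 mRNAs. The study's methods name DESeq2, which needs counts and was not used. Same-numbered libraries were not paired (correlations of replicate differences of -0.054 to 0.056 between groups), so no block was used.

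The members, gene lists and ratios were chosen with earlier results of these data known. Genes outside the set were named by rule: the other listed mitochondrial mRNAs, at most 2 tRNAs by mean, up to 4 called genes per nuclear list by absolute log2 fold change among those averaging 10 scaled TPM or more, and the 5 genes closest in pattern. Polrmt and Mtpap were added for their roles, and nuclear copies as examples of shared sequence. These 2 genes were picked from a larger set looked at for role. Tfam, Lrpprc, Slirp, Pnpt1, Pde12 and Fastk of that set are not shown. Gene positions, sequences and nuclear copies came from an earlier GENCODE release on the same build. Alternatives were other scalings, pseudocounts, filters and thresholds, a fit of 4 libraries, a replicate block and leaving out each library.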

Additional observations from a re-analysis of the deposited data

How the results depend on the processing

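In MII over GV, all 9 RNAs were called without any single library, and 89 of 90 values of single RNAs under the other alternatives kept their call, mt-Rnr2 falling to 0.89 under quantile normalization. In Btg4tm over Btg4wt the count of called RNAs was 9 with no minimum fold change, and ranged from 2 to 6 when a library was left out, with 2 without Btg4wt replicate 1 or Btg4tm replicate 1 and 6 without Btg4tm replicate 2. The median there ranged from -1.16 to -0.80. With an adjusted p under 0.05 alone, the 9 RNAs there became 7 without Btg4wt replicate 1 and 8 without Btg4tm replicate 1. In Btg4tm over GV the count was 6 with no minimum fold change and 2 under quantile normalization, where mt-Cytb fell to 0.98, and the median ranged from 0.56 to 0.90 when a library was left out. Values of single rRNAs changed sign when a library was left out. mt-Rnr1 ranged from -0.56 to 0.20 and mt-Rnr2 from -0.46 to 0.20 in Btg4tm over GV, and mt-Rnr1 from -0.065 to 0.19 and mt-Rnr2 from -0.19 to 0.034 in Btg4wt over MII. None of these 4 values was called under any alternative. Relative to the heavy-strand mRNAs, leaving out a library gave mt-Rnr2 -1.14 to -0.85 in MII over GV, and in Btg4tm over Btg4wt it gave mt-Rnr1 -1.21 to -0.77, mt-Rnr2 -0.74 to -0.30 and mt-Nd6 -0.088 to 0.16. Against the 4 heavy-strand mRNAs with few nuclear copies, chosen after seeing the data, mt-Rnr2 was -1.25 and mt-Nd6 -0.12 in MII over GV, since mt-Co1 and mt-Nd4, which rose less, were left out of the scale. As deposited, the summed TPM of the 9 RNAs were 5798 and 6129 in GV and 23564 and 23289 in MII. The replicate block left the called RNAs at 9, 4, 0 and 3 in MII over GV, Btg4tm over Btg4wt, Btg4wt over MII and Btg4tm over GV. Over all genes it moved the calls from 5103 to 5094, from 3643 to 3636, from 0 to 1 and from 285 to 285. TPM give no depth, so what sequencing depth limits cannot be stated.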
